A study of Mus musculus with 6 samples.

Results

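The genes described here code for proteins that move membrane and cargo between the endoplasmic reticulum (ER), the Golgi, endosomes, lysosomes and the cell surface. They were chosen by symbol alone: a probe was taken when its annotation gave exactly 1 gene symbol of the Rab, Arf, Arl, Ap1 to Ap3 adaptor, COPI, Sec, Vps, Snx, Vamp, Stx, Golga, Golgb or Tmed families. The rule used no measured value. It found 87 genes with 115 probes, out of 3939 genes with a single-symbol probe and 13872 probes in all. Of the 87 genes, 65 had 1 probe, 16 had 2 and 6 had 3.

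Proteins made at the ER leave it in vesicles with a COPII coat, and COPI-coated vesicles carry material back from the Golgi. Small GTPases of the Arf and Rab families recruit coats, motors and tethers to each membrane, clathrin adaptors pick cargo at the Golgi, endosomes and surface, and SNARE proteins fuse the vesicle with its target. In skeletal muscle fibres the same machinery carries the glucose transporter Glut4 to the surface during contraction and feeds endosomes, autophagosomes and lysosomes.

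Total RNA from mouse skeletal muscle was set against a shared reference RNA from control muscle, labelled Pre, on arrays with 2 channels, and each of the 6 groups had 1 array. Sham muscle came from operated mice that carried a pacer which was never switched on, taken when the 0 h muscle was. The 5 paced groups had 3 h of electrical pacing and were taken at 0, 1, 3, 8 or 24 h of recovery, the order in which paced values are given below. Which muscle, the strain, age and number of mice, and whether the Pre mice were operated or samples pooled, are not given in the sources used here. Without replicates there was no test, and no value below carries a p-value or a biological error; where a gene had several probes, the SD between probes is given instead. Sham is time-matched to 0 h only, so at later times pacing and elapsed time cannot be told apart, and all 5 differences share the 1 sham array. All values are log2 ratios of sample to Pre, with each array centred on its median; that the ratio runs sample over Pre is the likely reading of the labels, which name Pre as reference and do not give the dyes. "Difference from sham" is the paced log2 ratio minus the sham log2 ratio, and "2-fold" means a log2 value or difference of at least 1 in size.

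Arrays differed in spread, with robust SDs over probes from 0.176 at 1 h to 0.495 in sham, so a 2-fold threshold is passed more easily on some arrays than on others. Between 665 (8 h) and 1762 (0 h) exact zeros on the paced arrays, 201 in sham, and 154 repeated values in sham were treated as not measured. This left 85 members with a value in sham and 78, 81, 83, 85 and 83 on the paced arrays, with 68 on all 6. Ratios hold no signal level, so neither the order of abundance of the genes nor the labelled tissue could be checked. For 8 muscle fibre markers, Acta1 and Ckm among them, the medians against Pre lay between -0.24 and -0.02. Single markers ranged from -1.43 at 24 h to 0.22 in sham, and 1 was more than 2-fold below Pre at 8 h and 1 at 24 h. For 3 fibroblast markers (Pdgfra, Col1a2 and Dcn) the medians were 0.34 in sham and -0.04, 0.01, -0.09, -0.31 and -0.24 on the paced arrays. Medians lay between -0.17 and 0.32 for 4 endothelial markers and between -0.59 and -0.11 for 4 smooth muscle markers. The part of cell composition in the member values was not tested. In whole muscle, fewer cells of a type and less RNA per cell cannot be told apart. Spotted probes can bind close relatives, so for Rab11a and Rab11b, Arf1 and Arf4, Copz1 and Copz2, or Ap2a1 and Ap2a2 the family member is uncertain.

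As a set, the trafficking genes stayed close to the array centre. Their median difference from sham was 0.14, 0.06, 0.06, 0.11 and 0.14 from 0 h to 24 h, beside 0.05, 0.03, 0.02, 0.06 and 0.08 over all genes. Members above sham numbered 47 of 76, 42 of 79, 48 of 81, 51 of 83 and 47 of 81, which is 61.8%, 53.2%, 59.3%, 61.4% and 58% of those measured. Over all genes the shares were 54.1%, 53.4%, 53.1%, 56.4% and 57.8%, so at 1 h and 24 h the members stood at the background. With arrays scaled to a common robust spread, the member shares were 57.9%, 54.4%, 59.3%, 57.8% and 58%. Beside them stood 54.2%, 53.6%, 53.2%, 57.5% and 56.7% of all genes, so 8 h was at the background there too. Against Pre the median lay between -0.02 in sham and 0.05 at 0 h. In all, 66 of the 87 genes were 2-fold from neither sham nor Pre on any array that measured them. The same share was not calculated over all genes, so this count has no background beside it.

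At 0 h, 5 of 76 members (6.58%) were 2-fold from sham, beside 6.5% of all genes, so the share was that of the background. The count was 2 of 79 at 1 h (2.53%, background 1.54%), 7 of 81 at 3 h (8.64%, background 2.42%), 2 of 83 at 8 h (2.41%, background 3.66%) and 8 of 81 at 24 h (9.88%, background 5.98%). The 3 h share stood above the background. At 24 h the share was above it by less in proportion, and rests on few members. In 1 or more of the alternative ways of processing given below, 4 of the 7 calls at 3 h and 5 of the 8 at 24 h were lost. The 1 h and 8 h shares rest on 2 members each, too few to place them above or below it. With arrays scaled to a common robust spread, the member shares were 5.26%, 6.33%, 4.94%, 2.41% and 3.7% from 0 h to 24 h, beside 4.91%, 2.49%, 0.882%, 4.01% and 2.5% of all genes. At 24 h that was 3 of 81 members in place of 8. Split by direction, 0 h had 3 members higher (background 3.43%) and 2 lower (3.07%), and 2 and 2 on scaled arrays (2.45% and 2.45%). The 1 h split was 0 higher (0.865%) and 2 lower (0.676%), and 3 and 2 on scaled arrays (1.7% and 0.784%). For 3 h it was 5 higher (1.43%) and 2 lower (0.992%), and 2 and 2 on scaled arrays (0.496% and 0.386%). The 8 h split of 0 higher (1.79%) and 2 lower (1.87%) turned to 2 and 0 on scaled arrays (2.16% and 1.85%). For 24 h it was 5 higher (3.09%) and 3 lower (2.89%), and 2 and 1 on scaled arrays (1.39% and 1.11%). Past 2-fold against sham and also against Pre, with the same sign, were Arcn1 and Golga1 at 0 h (background 0.809%), 0 members at 1 h (0.0811%) and 0 at 8 h (0.633%), then Ap1m1, Arl3, Golga1, Rab5c and Vamp8 at 3 h (0.937%), and Ap1g1, Arl3, Rab3ip and Vamp8 at 24 h (2%). Against Pre alone, 4 of 85 members were 2-fold away in sham (background 4.07%). On the paced arrays the counts were 3 of 78 (2.11%), 1 of 81 (0.77%), 10 of 83 (5.39%), 1 of 85 (2.22%) and 4 of 83 (5.29%).

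**Figure D1:**
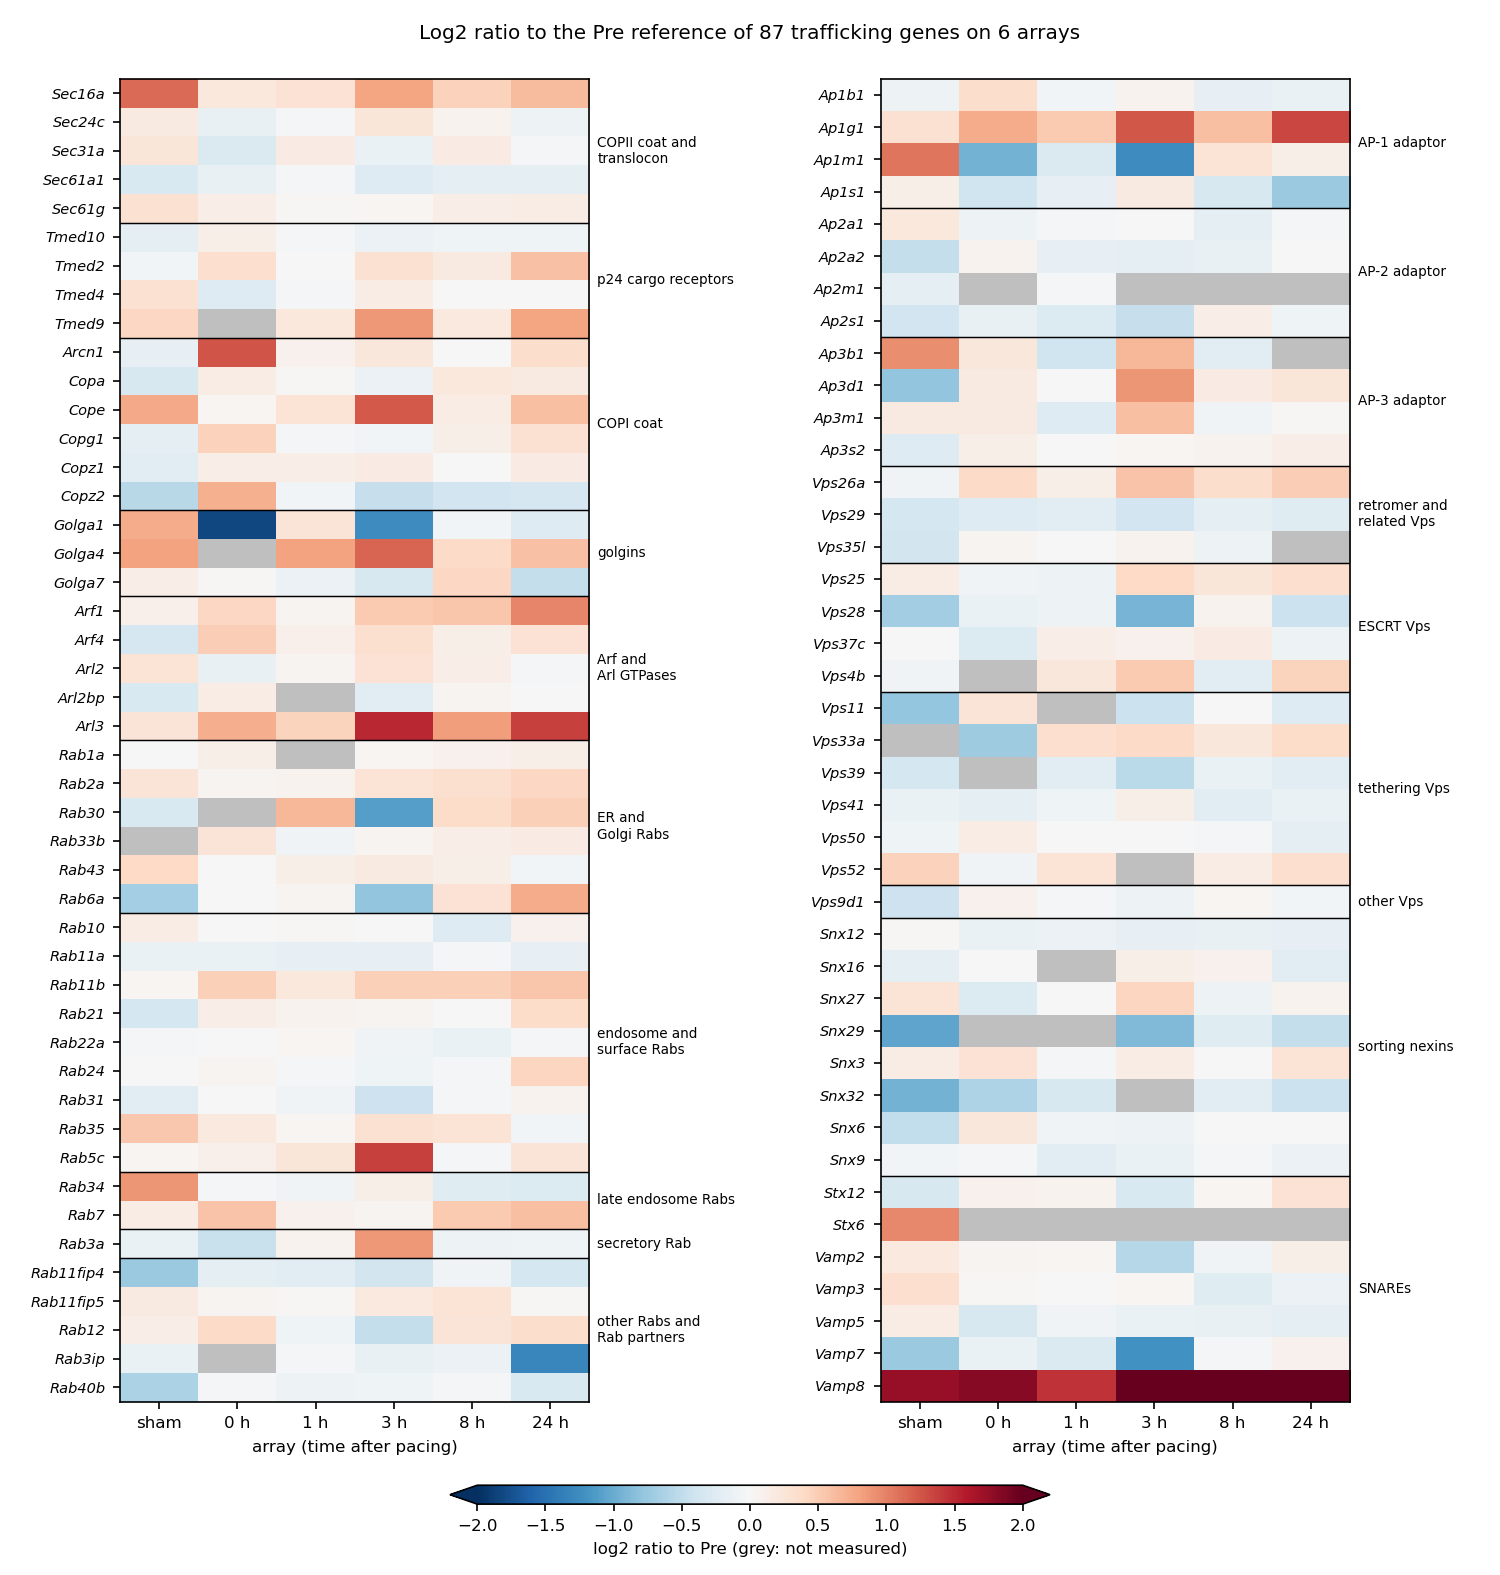
Heat map of the log2 ratio to Pre of the 87 trafficking genes (rows, grouped by compartment) on the 6 arrays (columns), with colours limited to -2 and 2 and grey for values not measured. Most rows are pale, while Vamp8 is red on all 6 arrays and Golga1 is blue at 0 h and 3 h.

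The ER translocon and the COPII coat were lower than sham in most members. The median of the 5 genes was -0.34, -0.21, -0.26, -0.12 and -0.26 from 0 h to 24 h. Of the 5 members, 1 was above sham at each time except 3 h, when there were 2. Over all genes the share above sham was 53.1% (3 h) to 57.8% (24 h). Some of these signs turned. Sec31a stood above sham on scaled arrays at 1 h (0.17) and 8 h (0.07). Sec61g did so at 0 h (0.02) on the probes that both arrays measured. On scaled arrays the 8 h median was -0.04. Against Pre the median was 0.24 in sham and -0.15, 0.02, 0.04, 0.13 and -0.03 on the paced arrays. Sham was thus the highest, and all 5 differences share that 1 sham array. Sec16a, which organises the ER exit sites where COPII vesicles form, stood at 1.13 in sham and 0.21, 0.30, 0.79, 0.46 and 0.63 on the paced arrays. All of its 6 values were above Pre, and sham was the highest. Its difference from sham was largest in size at 0 h, -0.92. Sec61g, the small gamma subunit of the translocon through which new proteins enter the ER, differed from sham by -0.28 at 1 h (3 probes, probe SD 0.39) and by -0.15 at 24 h (probe SD 0.48), less than its probes differed among themselves. Sec61a1, which forms the pore, was the member above sham throughout, at 0.04 to 0.28, except that its 8 h difference was -0.06 on scaled arrays.

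The p24 proteins, cargo receptors that cycle between ER and Golgi, were mixed. Tmed2 stood above sham at every time, by 0.07 at 1 h to 0.64 at 24 h, and Tmed4 below it at every time, by -0.16 to -0.57. Tmed9 was not measured at 0 h and stood at 0.42 in sham, 0.87 at 3 h and 0.79 at 24 h against Pre.

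Most COPI coat genes were higher than sham at each time, with the largest median difference at 0 h. At 0 h, 5 of the 6 stood above sham with a median difference of 0.55, and all 6 stood above Pre with a median of 0.30; in sham, 1 of 6 was above Pre and the median was -0.20. From 1 h to 24 h the medians against Pre were 0.05, 0.05, 0.06 and 0.24, and against sham 0.30, 0.29, 0.20 and 0.43. At those times 5, 6, 5 and 5 of 6 stood above sham, so the 0 h count was not higher than later ones. Over all genes, 54.1%, 53.4%, 53.1%, 56.4% and 57.8% stood above sham from 0 h to 24 h. The direction from sham was kept with scaled arrays, where the 0 h median was 0.53. With probe medians the 0 h median was 0.41. With zeros kept the 3 h median was 0.17.

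Arcn1, the delta subunit of the COPI coat, stood at -0.17 in sham and 1.26, 0.09, 0.23, -0.00 and 0.36 on the paced arrays. The 0 h value stood alone, more than 2-fold above Pre and 2.69-fold above sham. Copz2, a zeta subunit, had the same shape from a lower start, with -0.55 in sham, 0.71 at 0 h and between -0.46 and -0.06 afterwards, a 2.40-fold difference from sham at 0 h. Its 8 h difference of 0.18 was -0.15 on scaled arrays. Copg1, the gamma subunit, had 3 probes and a mean difference of 0.65 at 0 h, but the probes disagreed (probe SD 0.74). Its probes read 1.32, 0.17 and -0.11 against Pre at 0 h, so 1 of them set the high mean. Cope, the epsilon subunit, went the other way at 0 h. It stood at 0.76 in sham and 0.04, 0.27, 1.23, 0.15 and 0.61 on the paced arrays, highest at 3 h, and at 0 h it differed from sham by -0.72. The 3 h value came from 1 of its 2 probes, and the 3 h difference of 0.47 was -0.15 with zeros kept. Copa and Copz1, with 1 probe each, were above sham at all times, by 0.20 to 0.53 and by 0.23 to 0.38.

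**Figure D2:**
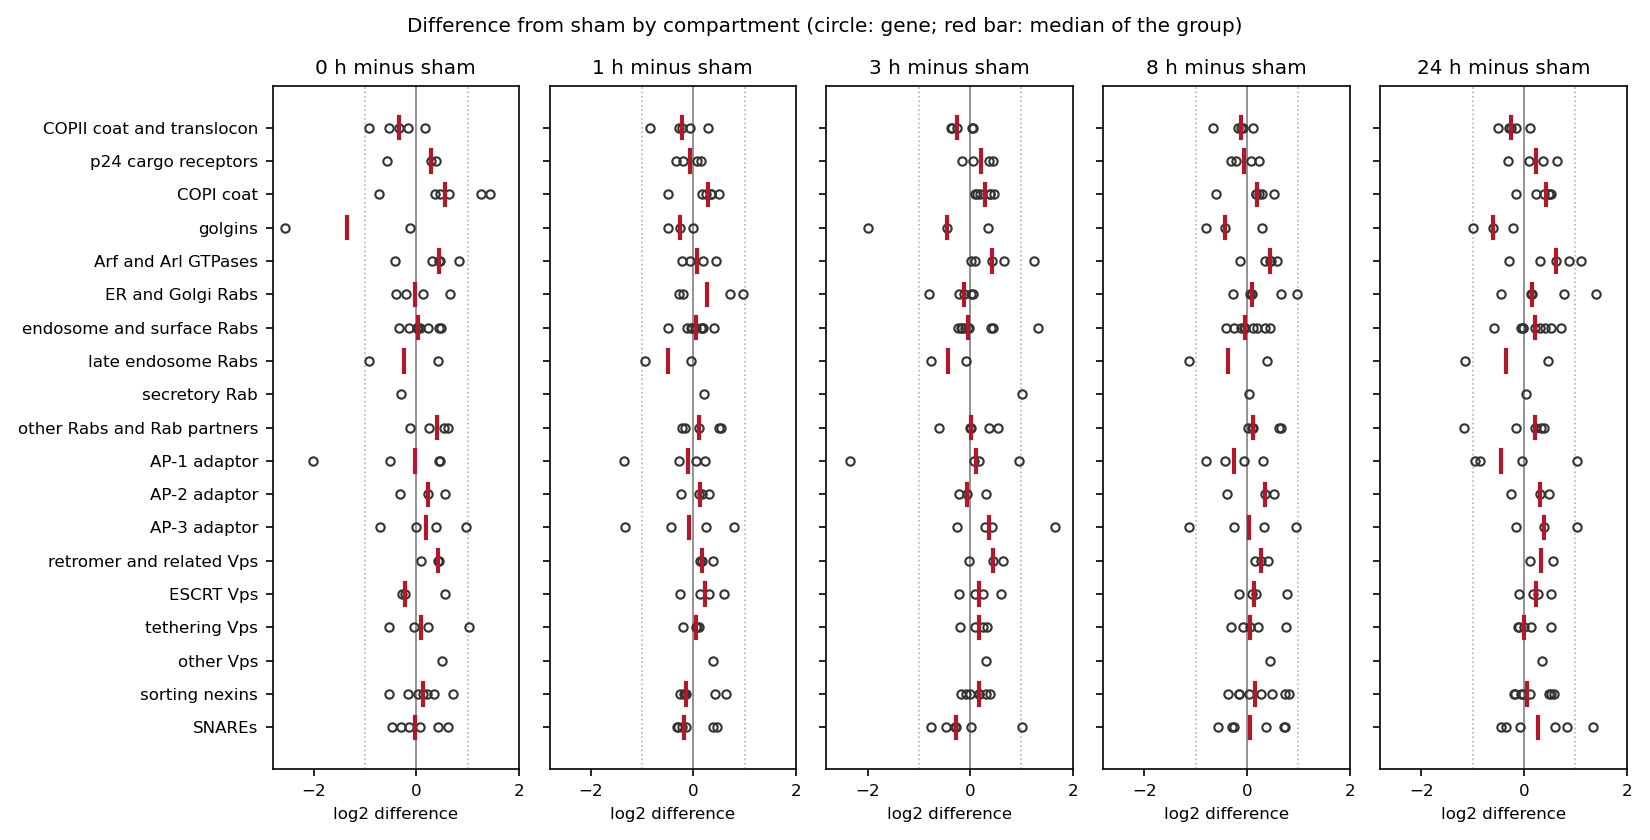
Log2 difference from sham (x axis) of each measured member by compartment (y axis) at the 5 times, with circles for genes, red bars for group medians and dotted lines at 2-fold. At 0 h the COPI row lies to the right of 0 except for Cope, and the far-left circles are Golga1 and Ap1m1.

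Golgins are long coiled-coil proteins that catch vesicles at the Golgi. Golga1, a golgin of the trans-Golgi, stood at 0.74 in sham and -1.82, 0.25, -1.25, -0.06 and -0.26 on the paced arrays. With the ratio read as sample over Pre, the 0 h value was the lowest of all 3649 genes on that array and the 3 h value number 22 from the lowest of 3690. With the ratio turned, the same ranks count from the highest. Between them, at 1 h, the same probe read above Pre. Against sham this was 5.91-fold lower at 0 h, 3.99-fold lower at 3 h and just past 2-fold lower (2.01) at 24 h, with sham itself 0.74 above Pre. On scaled arrays the 24 h difference was -0.75, below 2-fold. Golga4, another trans-Golgi golgin, was above Pre wherever measured. It stood at 0.81 in sham and 0.80, 1.16, 0.39 and 0.59 from 1 h on, and was not measured at 0 h. Golga7, a partner of a protein palmitoyltransferase rather than a tether, ranged from -0.47 at 24 h to 0.42 at 8 h. Against sham, Golga4 differed by -0.01, 0.35, -0.42 and -0.22 from 1 h on, and Golga7 by -0.12, -0.26, -0.46, 0.28 and -0.61 from 0 h on. The measured golgins were below sham at 0 h (2 of 2), 1 h (3 of 3, Golga4 by -0.01) and 24 h (3 of 3). At 3 h and 8 h 2 of 3 were. Over all genes, 54.1%, 53.4%, 53.1%, 56.4% and 57.8% were above sham from 0 h to 24 h. Counts of 2 or 3 genes are too few to set against those shares. All 3 golgins stood above Pre in the 1 sham array that every difference shares. Their median difference was -1.34, -0.26, -0.46, -0.42 and -0.61. It was -0.03 at 1 h and -0.01 at 8 h on scaled arrays, where Golga4 was 1.00 above sham at 1 h, and -0.81 at 0 h with zeros kept. Each golgin rests on 1 probe.

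Arf GTPases recruit coats to Golgi membranes when they bind GTP. Arf1, which brings in COPI and the Golgi adaptors, stood at 0.11 in sham and 0.41, 0.06, 0.53, 0.55 and 0.98 on the paced arrays, highest at 24 h. Arf4 was above sham at each time, by 0.44 at 1 h to 0.83 at 0 h, from a sham value of -0.34. Arl3, which releases lipid-modified cargo in cilia, stood at 0.26 in sham and 0.73, 0.45, 1.50, 0.84 and 1.36 on the paced arrays. It was above sham on all 5 paced arrays, 2.36-fold at 3 h and 2.15-fold at 24 h. On scaled arrays the last 3 log2 differences were 0.98, 1.02 and 1.00, with 3 h and 24 h just below 2-fold, so 8 h was not below 3 h and 24 h there. Arl2, which acts in tubulin folding, lay between -0.15 and 0.29 on all arrays. The median difference of the group was 0.45, 0.07, 0.42, 0.44 and 0.62 from 0 h to 24 h, above the all-gene median each time. The 1 h median was 0.24 on scaled arrays and 0.19 with zeros kept.

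Rab GTPases of the ER and Golgi differed from each other. Rab6a, which acts at the Golgi, stood at -0.67 in sham and -0.01, 0.05, -0.79, 0.29 and 0.73 on the paced arrays. It was low in sham and at 3 h and highest at 24 h, when it was 2.65-fold above sham but below 2-fold against Pre. Rab30, also of the Golgi, was -0.30 in sham and 0.66, -1.10, 0.37 and 0.48 from 1 h on, with no value at 0 h. Rab6a and Rab30 both had 1 probe, and both were lowest at 3 h. Rab2a, of the ER to Golgi intermediate, had 3 probes and differed from sham by -0.20 at 0 h to 0.15 at 24 h, with probe SDs of 0.06 to 0.65. With probe medians its differences at 3 h, 8 h and 24 h turned negative, to -0.02, -0.03 and -0.07. Rab43 differed from sham by -0.22 to -0.45, and Rab1a, which admits ER vesicles to the Golgi, was 0.05 to 0.14 above it where measured.

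Rabs of the endosomes and the surface had medians from sham of -0.05 to 0.21, and the 8 h median of -0.03 was 0.02 on scaled arrays. Rab10, which serves surface delivery of Glut4 vesicles, stood between -0.26 and 0.14 against Pre on all 6 arrays. Rab11a and Rab22a were within 0.12 of sham at every time. Rab11b, of the recycling endosome, had 2 probes. One stood at 0.02 in sham and 0.55, 0.26, 0.61, 0.54 and 0.62 on the paced arrays, the other at 0.04 in sham and 0.41, 0.16, 0.35, 0.41 and 0.48. Both probes were above sham on every paced array, by 0.44 to 0.52 on average except at 1 h, at 0.18. It falls outside the rule for named genes and was singled out after its values were seen. Rab5c, which drives early endosome fusion, stood at 1.36 at 3 h and between -0.02 and 0.25 on the other arrays. The 3 h value came from 1 of its 2 probes, and on that probe alone the difference from sham was 0.87, below 2-fold. Rab21 was above sham by 0.35 to 0.72, and Rab35 below it by -0.23 to -0.59, except for 0.02 at 8 h on scaled arrays.

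The Rabs of late endosomes differed from each other. Rab7, the main Rab of late endosomes and lysosomes, had 3 probes and means of 0.14 in sham and 0.57, 0.09, 0.06, 0.52 and 0.61 on the paced arrays. At 8 h its probes read 0.61, 0.38 and 0.58, and at 0 h 0.40, 0.46 and 0.85, all above Pre. At 3 h they ranged from -0.77 to 0.59, so the low mean there hides a disagreement. The differences from sham were 0.43 at 0 h (probe SD 0.48), 0.38 at 8 h (probe SD 0.25) and 0.47 at 24 h from gene means, or 0.36 (probe SD 0.19) on the probes that both arrays measured. Rab34, which places lysosomes near the Golgi, stood at 0.89 in sham and at -0.04, -0.06, 0.12, -0.25 and -0.27 on the paced arrays in time order. It was below sham at every time, 2.19-fold at 8 h and 2.22-fold at 24 h, while its paced values stayed between -0.27 and 0.12 against Pre. On scaled arrays both differences were below 2-fold, at -0.97 and -0.85.

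Among the remaining Rabs, Rab3a, which controls release of synaptic vesicles, stood at -0.14 in sham and -0.44, 0.08, 0.87, -0.10 and -0.09 on the paced arrays. Its 3 h difference from sham, 1.01, was just past 2-fold, and was 0.77 on scaled arrays. Rab3ip, an exchange factor that activates Rab8, stood at -0.14 in sham and -0.02, -0.14, -0.12 and -1.30 from 1 h on, with no value at 0 h. The 24 h value stood apart from the other 4 and was 2.24-fold below sham. Rab40b, a ubiquitin ligase subunit, was above sham by 0.33 to 0.61, from -0.63 in sham.

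**Figure D3:**
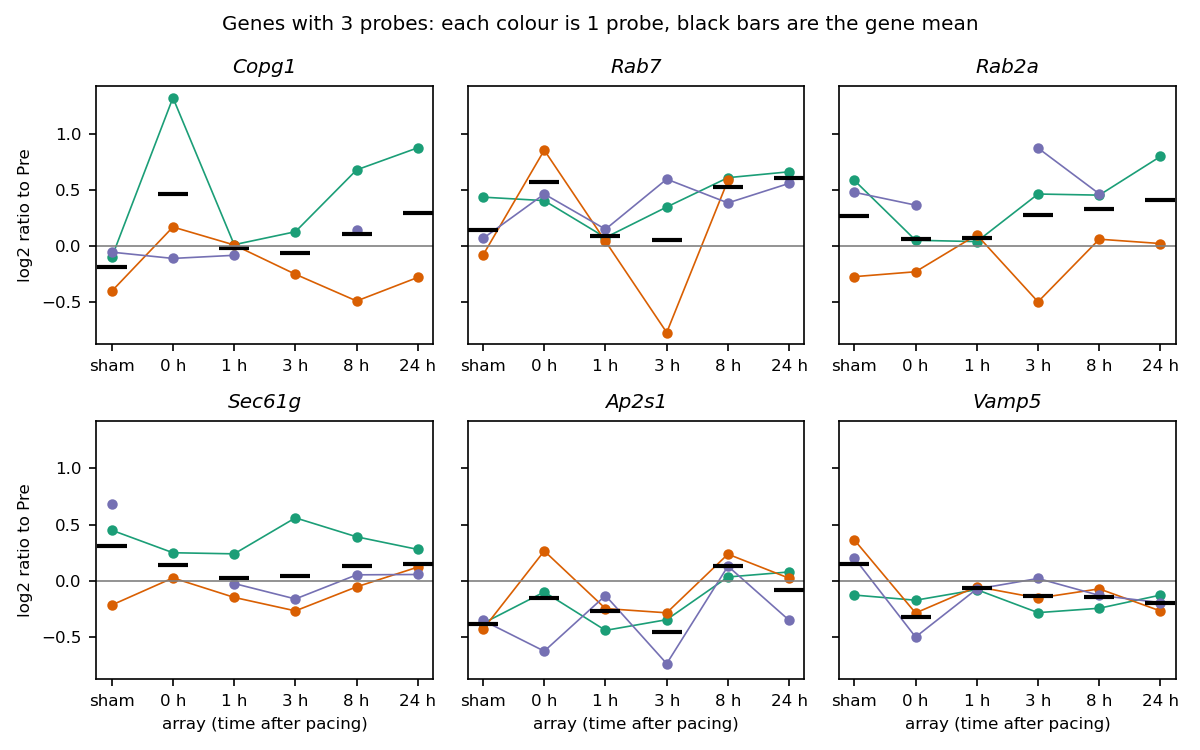
Log2 ratio to Pre (y axis) on the 6 arrays (x axis) for the 6 members with 3 probes, with 1 colour per probe and black bars for the mean of the probes measured. Copg1 has a probe at 1.32 at 0 h beside 0.17 and -0.11, while the Vamp5 probes at 8 h read -0.24, -0.07 and -0.13.

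The AP adaptors are complexes of large, medium and small subunits, and subunits of 1 complex did not share a direction. In AP-1, which sorts cargo between the trans-Golgi and endosomes, Ap1g1 (a large subunit) stood at 0.30 in sham and 0.74, 0.53, 1.24, 0.61 and 1.33 on the paced arrays. All 6 values were above Pre and all paced values above sham, by 2.05-fold at 24 h, a log2 difference of 1.03 that was 0.94 on scaled arrays. Ap1m1 (the medium subunit) stood at 1.07 in sham and -0.95, -0.28, -1.26, 0.27 and 0.11 on the paced arrays. It was high in sham and lowest at 0 h and 3 h, 4.05-fold and 5.06-fold below sham, and 2.56-fold below at 1 h. Ap1s1 (a small subunit, 2 probes) differed from sham by -0.86 at 24 h (probe SD 0.64), and Ap1b1 stayed between -0.16 and 0.36 against Pre.

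AP-2, which forms clathrin pits at the surface, held no member 2-fold from sham. Ap2a2 was above sham by 0.30 to 0.56 and Ap2a1 below it by -0.22 to -0.39. Ap2s1, the small subunit with 3 probes, differed from sham by 0.52 at 8 h (probe SD 0.13) and by 0.23 at 0 h (probe SD 0.49). At 8 h its 3 probes were all above their own sham values, and at 0 h they disagreed.

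In AP-3, which routes cargo to lysosomes, Ap3b1 stood at 0.93 in sham and 0.22, -0.39, 0.67 and -0.21 up to 8 h, with no value at 24 h. It was 2.50-fold below sham at 1 h and 2.20-fold at 8 h, the latter a log2 difference of -1.14 that was -0.95 on scaled arrays. Ap3d1, the other large subunit, lay on the opposite side, with -0.79 in sham and 0.18, 0.01, 0.88, 0.17 and 0.24 on the paced arrays in time order. Its difference of 1.66 at 3 h was 1.12 on the probe that both arrays measured. Its 24 h difference of 1.03 was 0.28 with zeros and repeated values kept. Its sham value came from 1 of the 2 probes. Ap3m1 and Ap3s2 were within 0.44 of sham at every time.

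**Figure D4:**
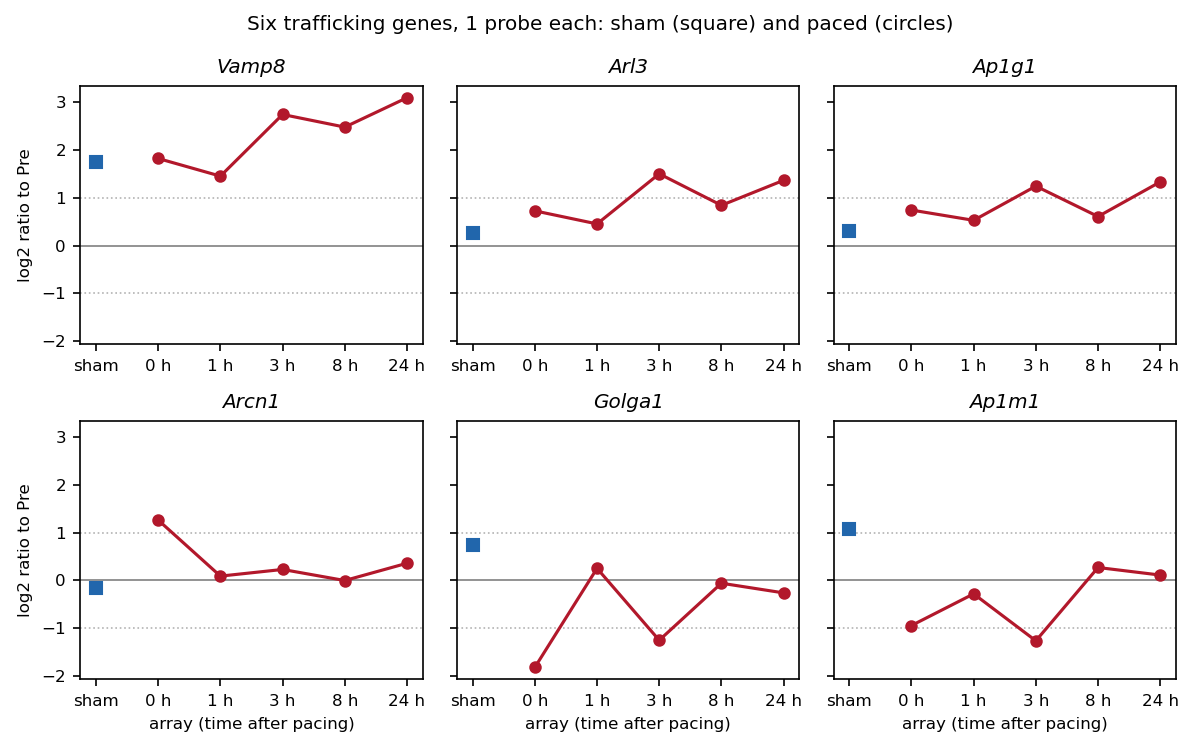
Log2 ratio to Pre (y axis) of 6 single-probe members in sham (blue square) and on the paced arrays (red circles, joined in time order), with dotted lines at 2-fold. Vamp8, Arl3 and Ap1g1 are above Pre throughout and peak at 3 h or 24 h, Arcn1 is high at 0 h only, and Golga1 and Ap1m1 are lowest at 0 h and 3 h.

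Vps proteins sort endosomal cargo. Of the retromer subunits, which return receptors from endosomes to the Golgi, Vps26a was above sham by 0.18 at 1 h to 0.64 at 3 h and Vps29 within 0.16 of it throughout, with its sign at 0 h, 1 h and 8 h turning on scaled arrays. Among ESCRT subunits, which bud vesicles into endosomes, Vps28 stood at -0.70 in sham, -0.92 at 3 h and between -0.43 and 0.08 on the other arrays. It was low on the arrays of widest spread, sham and 3 h. Vps25 (2 probes) and Vps37c were within 0.27 of sham. Vps11, a core subunit of the complexes that tether endosomes and lysosomes, stood at -0.77 in sham, 0.25 at 0 h and -0.44, -0.01 and -0.25 from 3 h on, with no value at 1 h. Its 0 h difference, 1.02, was 0.26 with zeros and repeated values kept; its other probe was at an exact 0 at 0 h and held a repeated value in sham. Vps41 and Vps50, also tethering subunits, were within 0.24 of sham.

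Sorting nexins bind phosphoinositides on endosomes. Snx6, a partner of retromer, was above sham by 0.40 to 0.72, from -0.49 in sham, and stood at -0.10 to 0.22 against Pre after pacing. Snx27, which returns surface proteins from endosomes, was below sham at 4 of the 5 times, by up to -0.54 at 0 h, and 0.16 above it at 3 h, a sign that turned to -0.05 with zeros kept. Snx12 (2 probes) and Snx9 were within 0.18 of sham. Snx29 stood at -1.06 in sham and -0.88, -0.24 and -0.48 from 3 h on, with no value at 0 h or 1 h.

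The SNAREs held the largest ratio of the set. Vamp8, which works in fusion with late endosomes and of autophagosomes with lysosomes, stood at 1.74 in sham and 1.82, 1.45, 2.74, 2.48 and 3.09 on the paced arrays. Every array, sham included, was more than 2-fold above Pre, and the values at 3 h, 8 h and 24 h were above the rest. Among all genes measured on each array it ranked 15 from the highest in sham and 12, 13, 2, 3 and 3 on the paced arrays. With the ratio turned, these ranks count from the lowest. Against sham its log2 difference was 0.08, -0.29, 1.00, 0.74 and 1.35 from 0 h to 24 h, the last a 2.55-fold difference. The order depended on the spread of the arrays: in units of each array's robust SD the ratio was 3.52 in sham and 6.23, 8.23, 6.16, 10.3 and 7.74 on the paced arrays. On scaled arrays Vamp8 stood above sham at all 5 times, including by 1.63 at 1 h, and its 3 h difference of 0.91 was below 2-fold. Blood cells also use Vamp8. The leukocyte markers on the array, Lyz2 and Ptprc, lay between -0.16 and 0.93 against Pre in sham and between -0.12 and 0.60 on the paced arrays, and their part in the Vamp8 value was not tested. Only 1 probe measured Vamp8.

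The other SNAREs lay lower. Vamp7, a lysosomal SNARE with 2 probes, stood at -0.74 in sham and -0.13, -0.28, -1.22, -0.02 and 0.09 on the paced arrays, low in sham and at 3 h. At 3 h its probes read -1.56 and -0.88, so both were below Pre. Its 1 h difference from sham, 0.46, was -0.03 on scaled arrays. Vamp5, a SNARE of the muscle surface with 3 probes, was below sham at all times, by -0.21 at 1 h to -0.47 at 0 h, with probe SDs of 0.16 to 0.36. Vamp2 and Vamp3, which serve fusion of Glut4 and recycling vesicles at the surface, were also below sham at all times, by -0.08 to -0.76 and -0.29 to -0.57. Stx12, an endosomal syntaxin, was above sham by 0.02 to 0.60, with the 3 h difference at -0.01 on scaled arrays.

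Golga1, Arl3, Ap1g1 and Vamp8 were the members 2-fold from Pre in 1 direction on 2 or more paced arrays. The 250 bases before the start of each are shown for that reason. How many of all genes pass the same rule was not counted. Vamp8 was also 2-fold above Pre in sham, at 1.74, so its repeated ratio is not particular to paced muscle. The sequences are from RefSeq, build GRCm38.p6, 5′ to 3′ on the gene's strand, and 66 of the 87 members had an entry. Capitals mark matches, on either strand, to CACGTG (the E-box core), TGACGTCA (the cyclic AMP response element) or CCAAT.
Golga1, chr2:39065542-39065791, minus strand: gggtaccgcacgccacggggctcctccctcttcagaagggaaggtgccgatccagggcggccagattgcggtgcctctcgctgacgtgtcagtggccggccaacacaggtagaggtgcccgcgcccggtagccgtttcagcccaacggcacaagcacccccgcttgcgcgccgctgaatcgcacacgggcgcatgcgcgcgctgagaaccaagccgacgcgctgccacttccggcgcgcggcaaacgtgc
Arl3, chr19:46573183-46573432, minus strand: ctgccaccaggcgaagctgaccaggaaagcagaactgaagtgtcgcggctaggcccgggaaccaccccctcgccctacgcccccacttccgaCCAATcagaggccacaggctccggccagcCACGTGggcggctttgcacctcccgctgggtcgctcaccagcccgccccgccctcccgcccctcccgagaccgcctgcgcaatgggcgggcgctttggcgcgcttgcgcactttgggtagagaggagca
Ap1g1, chr8:109778333-109778582, plus strand: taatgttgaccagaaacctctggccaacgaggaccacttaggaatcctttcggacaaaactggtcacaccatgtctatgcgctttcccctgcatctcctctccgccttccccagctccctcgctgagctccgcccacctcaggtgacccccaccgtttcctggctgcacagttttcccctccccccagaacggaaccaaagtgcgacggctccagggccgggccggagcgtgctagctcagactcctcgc
Vamp8, chr6:72390668-72390917, minus strand: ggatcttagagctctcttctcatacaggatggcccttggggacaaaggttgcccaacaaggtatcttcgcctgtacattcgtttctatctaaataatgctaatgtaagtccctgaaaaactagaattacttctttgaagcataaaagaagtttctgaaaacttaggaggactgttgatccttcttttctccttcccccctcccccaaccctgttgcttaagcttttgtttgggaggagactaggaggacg
Arl3 held 1 CACGTG and 1 CCAAT, and the other windows held none of the 3 motifs in these letters. CACGTG was found in 8 of the 66 members with an entry (12.1%) and in 6.86% of all 27025 genes with one, or 6.02% of their 32851 windows of that length. TGACGTCA was found in 1 of 66 (1.52%), in 1.77% of genes and in 1.55% of windows. CCAAT was found in 30 of 66 (45.5%), in 37.5% of genes and in 33.8% of windows. A match is a description of the letters, and no binding was measured.

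Not every member could be followed. Stx6, a trans-Golgi syntaxin, had a value in sham alone, 0.97, and Ap2m1, the medium subunit of AP-2, in sham and at 1 h alone. Rab33b and Vps33a had none in sham, so these and Stx6 have no difference from sham. The remaining incomplete members lacked 1 array each, or 2 for Snx29. Together 19 members lacked a value on 1 or more arrays.

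Trafficking genes outside the symbol rule were read the same way. Of 133 listed genes of the same pathways, 44 were on the array. Their median difference from sham was 0.13, 0.06, 0.10, 0.17 and 0.27 from 0 h to 24 h, with 31 of 40 above sham at 24 h. At 24 h the all-gene median was 0.08, and 2078 of 3598 genes were above sham. At 2-fold from sham, 1 of 37 was past the threshold at 0 h (Trappc9 at 1.08, background 6.5%) and 1 of 40 at 24 h (Scamp3 at 1.39, background 5.98%). None of 40 was at 1 h (1.54%), 3 h (2.42%) or 8 h (3.66%). Stxbp3, which binds syntaxins in Glut4 vesicle fusion, stood at 1.21 in sham and 0.22, 0.77, 1.23, 0.84 and 1.70 on the paced arrays. Tbc1d1, a Rab GTPase-activating protein that contraction signals act on in muscle, stood at 0.52 in sham and 0.65, 0.50, 0.86, 0.39 and 1.34 on the paced arrays in time order. Both were above Pre on all 6 arrays and highest at 24 h. Slc2a4, which codes for Glut4 and was on the same list, went the other way, with -0.19 in sham. Its paced values were -0.32, -0.21, -0.23, -0.38 and -0.71, below Pre throughout and lowest at 24 h. The rule for named genes covers members only, so these genes were picked outside it.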

How the data were processed

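The authors deposited log10 ratios, 1 for each probe on each array. No source states the base; 97 cells hold 9.64e-17, which is what the base 10 log of a ratio a rounding error above 1 gives. The scanner, background correction and normalisation are not given in the sources used here. The log10 values were converted to log2. Exact zeros, and values repeated within a run of 289 probes on the sham array, were set to missing, and each array was centred on its median. A gene's value averages those of its probes that were measured and carry a single symbol (6609 probes, named by the platform annotation, 6599 matched to the GRCm38.p6 gene table). Each count or median covers genes measured on both arrays of a comparison, over all genes as over members. Alternatives kept zeros, scaled arrays to a common robust spread, used probes measured on both arrays, left out centring, took probe medians, left out 8 members with roles at the edge of trafficking (Golga7, Arl2, Arl2bp, Rab40b, Rab11fip4, Rab11fip5, Rab3ip and Vps9d1), or kept only genes measured on all 6 arrays; the last was chosen after seeing the data.

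Named genes were members 2-fold from sham or Pre on any array, members with 3 probes measured on all 6 arrays, and the members with the highest and lowest mean difference from sham in each compartment. Of these, Rab11fip5 differed from sham by -0.16 to 0.09, with its signs at 3 h and 8 h turning with zeros kept. Vps9d1 differed by 0.31 to 0.50. Others are mostly given by ranges. Some members outside the rule are printed with single values, among them Arf1, Arf4, Ap1s1, Rab11b, Stx6 and Tmed9. Members, lists and rules were chosen with earlier results of these data known. The calculation was run on simulated data with planted differences well past the threshold and noise below the spread of these arrays. That run checks the arithmetic only and does not show how reliable the 2-fold calls are. Python 3.11.15, pandas 2.3.3 and numpy 2.4.6 were used. The number of arrays limits the precision.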

Additional observations from a re-analysis of the deposited data

Results flagged for a closer look

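Ap1m1, the medium subunit of the AP-1 adaptor, was more than 2-fold from Pre in opposite directions on different arrays, at 1.07 in sham and -1.26 at 3 h. With 1 array and 1 probe behind each value the difference was not tested. No other member was 2-fold from Pre, or from sham, in both directions.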

How the results depend on the processing

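Of the 24 calls of a member at 2-fold from sham, 12 were kept with zeros and repeated values kept, scaled arrays, probes measured on both arrays, no centring, and probe medians, and 12 were lost in 1 or more of these; no called value changed sign. Scaling to a common spread moved most counts: members 2-fold from sham were 5 at 1 h (2 without scaling), 4 at 3 h (7) and 3 at 24 h (8), beside 2.49%, 0.882% and 2.5% of all genes on scaled arrays. Those past 2-fold against both sham and Pre became 3 for 1 h (0), 1 for 3 h (5), 2 for 8 h (0) and 2 for 24 h (4), beside 1.73%, 0.248%, 2.69% and 1.22% of all genes. Keeping zeros and repeated values left 3 members (5) 2-fold from both at 3 h. With only genes measured on all 6 arrays, 1 member (2) was 2-fold from sham at 1 h and 1 (2) at 8 h. The share over all genes was not calculated for either of these alternatives. The other counts stayed within 1.5 times and all medians over the members within 0.1 under every alternative run. No centring, probe medians, probes measured on both arrays and leaving out 8 members changed no count by more than that. No paired analysis was possible because each group had 1 array, and no replicate could be left out. Signal over background is unknown, and 1 array per group limits every value.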

Other observations

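Probes with more than 1 symbol were left out of the set, and 2 of them named a gene that the symbol rule would match or a close partner of one. The probe shared by Rab20, a Rab of macropinosomes and endosomes, and E230013L22Rik stood at -1.36 in sham and between -0.56 and -0.18 on the paced arrays. The probe shared by Rab3gap2, a regulator of Rab3 and Rab18, and Iars2 stood at -1.24 in sham, 0.50 at 0 h and between -0.12 and 0.00 at 1 h, 8 h and 24 h. Both were more than 2-fold below Pre in sham and nearer to it on every paced array that measured them, and which of the symbols either value belongs to cannot be told.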
